A study of Rattus norvegicus with 12 samples.

Results

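A set of 6 genes of antigen presentation to helper T cells were followed through 12 libraries of rat whole blood: the MHC class II chain genes RT1-Ba, RT1-Bb, RT1-Da and RT1-Db1, the invariant chain gene Cd74 and the class II regulator gene Ciita. They were selected by symbol, with earlier results of these libraries known, and are 6 of the 17337 genes counted. The blood came from adult male rats of the inbred strains F344 (Fischer) and WKY (Wistar Kyoto), aged 70 to 90 days at the start. All rats underwent contextual fear conditioning, stayed in the home cage for 4 weeks, were conditioned a second time and were decapitated 24 hours after that test. Between the home cage period and the second conditioning, the stressed groups were restrained in cone-shaped bags for 2 hours a day over 2 weeks (chronic restraint stress, CRS), while the unstressed groups (NS) were left alone. The 4 groups of 3 libraries each are written F344 NS, F344 CRS, WKY NS and WKY CRS where values for all 4 are listed. The labels do not say that each library is a separate rat, so every p-value below measures the spread between libraries, which may be technical.

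MHC class II molecules are pairs of an alpha and a beta chain on the surface of antigen-presenting cells, where they show peptides from engulfed proteins to CD4 T cells. The rat has a pair of classical class II molecules, RT1-B (chains RT1-Ba and RT1-Bb) and RT1-D (chains RT1-Da and RT1-Db1). New class II molecules are held in the endoplasmic reticulum by the invariant chain CD74, which blocks the peptide groove and steers them to endosomes. CIITA is a co-activator that binds no DNA itself and is recruited by the factors on the X and Y boxes of class II promoters. In blood, B cells carry class II all the time, and dendritic cells and a share of monocytes carry it as well.

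Class II chain genes are known for this X and Y box module, so the 4 promoters are shown here. RefSeq (build GRCr8) gave the 250 bases before and the 50 bases after the gene start for 5 of the 6 genes, all but Ciita. The capitals mark matches to 3 motifs that were spelled after the sequences were read: the Y box CTGATTGG, the X box GNNACNGAT and the X2 box TGACGTCA. The sequences are written 5′ to 3′ on the strand of the gene.
RT1-Ba, GRCr8 chr20:4576807-4577106, plus strand: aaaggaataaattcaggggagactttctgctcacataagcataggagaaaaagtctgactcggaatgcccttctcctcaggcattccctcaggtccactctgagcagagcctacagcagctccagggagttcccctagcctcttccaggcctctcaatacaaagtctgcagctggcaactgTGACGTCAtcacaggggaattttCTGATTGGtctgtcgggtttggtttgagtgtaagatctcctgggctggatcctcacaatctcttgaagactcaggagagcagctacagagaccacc
RT1-Bb, GRCr8 chr20:4604069-4604368, minus strand: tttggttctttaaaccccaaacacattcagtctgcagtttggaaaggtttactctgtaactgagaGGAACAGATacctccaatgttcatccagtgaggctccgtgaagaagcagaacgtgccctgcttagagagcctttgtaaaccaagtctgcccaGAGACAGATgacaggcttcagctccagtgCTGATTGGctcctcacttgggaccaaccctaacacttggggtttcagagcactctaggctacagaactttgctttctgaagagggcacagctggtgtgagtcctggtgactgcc
RT1-Da, GRCr8 chr20:4515165-4515464, plus strand: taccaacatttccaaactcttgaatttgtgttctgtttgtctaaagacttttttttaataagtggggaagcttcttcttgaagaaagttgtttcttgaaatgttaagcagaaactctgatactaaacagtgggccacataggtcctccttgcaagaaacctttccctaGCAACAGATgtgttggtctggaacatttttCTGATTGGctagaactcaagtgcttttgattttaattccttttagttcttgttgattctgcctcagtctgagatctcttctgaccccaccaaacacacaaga
RT1-Db1, GRCr8 chr20:4560113-4560412, minus strand: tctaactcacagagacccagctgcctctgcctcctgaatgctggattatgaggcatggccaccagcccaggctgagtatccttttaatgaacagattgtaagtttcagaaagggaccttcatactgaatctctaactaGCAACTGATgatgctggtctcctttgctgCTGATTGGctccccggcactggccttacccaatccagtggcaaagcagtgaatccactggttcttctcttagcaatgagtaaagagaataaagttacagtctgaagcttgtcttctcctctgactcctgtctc

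The Y box letters stood in all 4 chain promoters, beginning 46 bases before the start in RT1-Ba, 64 in RT1-Bb, 52 in RT1-Da and 83 in RT1-Db1. The X box letters stood upstream of them in RT1-Bb (GAGACAGAT), RT1-Da (GCAACAGAT) and RT1-Db1 (GCAACTGAT), with 20, 21 and 20 bases between both boxes. RT1-Bb held a further X box match (GGAACAGAT) 185 bases before its start. RT1-Ba had no match to these X box letters and was the one chain promoter with the X2 letters, which began 69 bases before its start. The Cd74 promoter held none of the 3 motifs as spelled. Searched on both strands of 33469 promoters of the same length, the Y box letters were found in 3.5%, the X box letters in 7.83% and the X2 letters in 1.83%. An X box followed by a Y box within 30 bases on the gene's strand was found in 5 of the 33469 promoters (0.0149%), those of RT1-Bb, RT1-Da, RT1-Db1, the further class II gene RT1-Db2 and Cdv3, which is no class II gene. The letters were spelled after the class II sequences were read, so these shares are not an independent background for them. No 2 of the matches overlapped in these promoters. A match describes letters in a window and does not show that a factor binds there.

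**Figure D1:**
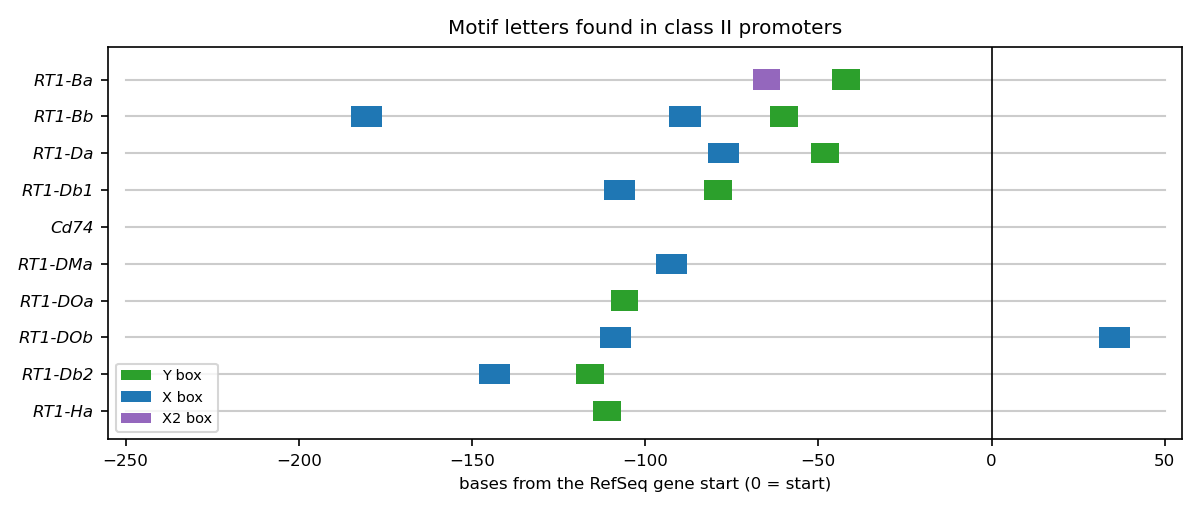
Positions of the Y box, X box and X2 box letters in the promoters of the 4 chain genes, Cd74 and 5 further class II genes. The horizontal axis gives bases from the RefSeq gene start, and each coloured bar is 1 match. RT1-Bb, RT1-Da, RT1-Db1 and RT1-Db2 carry an X box followed by a Y box, RT1-Bb has a further X box match upstream, and Cd74 carries no match.

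Depth sets the limit for all 6 genes. Genes received 1691956 to 3846263 counts per library, and outside the 3 most abundant features 90796 to 419789 counts were left, fewest in unstressed F344 replicate 3. Together the 6 genes drew 24 counts in that library, 64 in unstressed F344 replicate 2 and up to 323 in stressed F344 replicate 3. One count was worth 0.202 to 1.14 CPM (counts relative to a common library total after TMM scaling, a correction for library composition), and a count of 0 allows a level of up to 3 counts, or 0.606 to 3.43 CPM. These limits cover counting error only. Reads set aside as ambiguous between features made up 78.3% to 83.6% of a library, and overlapping or closely related class II genes may lose reads to that class. The class II chains are polymorphic between rat strains, and whether reads of F344 and WKY aligned equally well to build rn6 was not tested. The low-count filter kept 2781 genes and 5 of the 6 members, leaving out RT1-Bb.

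RT1-Ba, the alpha chain of RT1-B, was lowest in stressed WKY. It stood at 8.55, 8.53 and 2.29 CPM in unstressed F344 replicates 1, 2 and 3, and at 3.23, 6.49 and 7.51 CPM in stressed F344. In WKY it stood at 5.30, 6.88 and 3.48 CPM without stress and at 3.82, 0.436 and 2.30 CPM after CRS, the last 3 values resting on 15, 1 and 7 counts. The stressed WKY libraries overlapped with the stressed F344 and the unstressed WKY libraries through replicate 1 alone. The order of the group means was F344 NS at 6.45 ± 3.61 CPM (SD, n = 3), F344 CRS at 5.74 ± 2.23, WKY NS at 5.22 ± 1.70 and WKY CRS at 2.19 ± 1.70. The first 3 means lay within 1 SD of each other.

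RT1-Bb, the beta chain of the same molecule, had the fewest counts of the 6 genes, 74 over all libraries. It stood at 1.93, 1.22 and 0 CPM in unstressed F344 (7, 2 and 0 counts) and at 2.02, 1.71 and 2.44 CPM in stressed F344. In WKY it stood at 3.22, 1.97 and 1.94 CPM without stress and at 1.78, 0.872 and 1.31 CPM after CRS. All 3 stressed WKY libraries lay below the 3 unstressed ones, but by as little as 1.94 against 1.78 CPM. Of tested genes, 5.18% separated downwards in this comparison. Earlier results of it led to the choice of the genes, so nothing is read from the separation. RT1-Bb did not pass the filter and was not tested.

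RT1-Da, the alpha chain of RT1-D, was detected in every library. It stood at 11, 6.70 and 8.01 CPM in unstressed F344 and at 11.1, 5.80 and 11 CPM in stressed F344. In WKY it stood at 9.67, 13.1 and 8.52 CPM without stress and at 9.17, 6.98 and 6.90 CPM after CRS. All 4 groups overlapped, and their means ran from 7.68 ± 1.29 CPM (SD, n = 3) in stressed WKY to 10.4 ± 2.39 in unstressed WKY.

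RT1-Db1, the beta chain that pairs with RT1-Da, was at or near 0 in a pair of the stressed WKY libraries. It stood at 4.69, 3.65 and 1.14 CPM in unstressed F344 and at 2.62, 5.80 and 3.45 CPM in stressed F344. In WKY it stood at 4.14, 3.28 and 0.774 CPM without stress and at 0.509, 0 and 2.30 CPM after CRS. The stressed WKY values rest on 2, 0 and 7 counts, so replicate 2 may hold up to 1.31 CPM. All 3 lay below the lowest stressed F344 library, and they overlapped with unstressed WKY. RT1-Da in the same 3 libraries had 36, 16 and 21 counts, so the partner chain was detected in each.

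Cd74, the invariant chain, was the best counted of the 6 genes, with 1170 counts in all. It stood at 36.4, 14.6 and 10.3 CPM in unstressed F344 and at 37.8, 28.3 and 34.1 CPM in stressed F344. In WKY it stood at 32.9, 48.2 and 25.5 CPM without stress and at 27.0, 25.7 and 15.1 CPM after CRS. Stressed WKY lay below every stressed F344 library, by a gap of 27.0 against 28.3 CPM. Unstressed F344 was split, with replicate 1 at the level of the stressed F344 libraries and replicates 2 and 3, the pair with the fewest class II counts, below all other libraries.

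Ciita, the co-activator, stood at 8.27, 4.26 and 5.72 CPM in unstressed F344 and at 6.86, 8.53 and 7.10 CPM in stressed F344. In WKY it stood at 8.75, 7.86 and 5.42 CPM without stress and at 5.60, 4.80 and 1.64 CPM after CRS. The last of these values rests on 5 counts, and those of unstressed F344 replicates 2 and 3 rest on 7 and 5. The highest stressed WKY library overlapped with the lowest unstressed one and lay below all stressed F344 libraries. The mean was 6.09 ± 2.03 CPM (SD, n = 3) for F344 NS, 7.50 ± 0.903 for F344 CRS, 7.34 ± 1.73 for WKY NS and 4.01 ± 2.09 for WKY CRS.

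**Figure D2:**
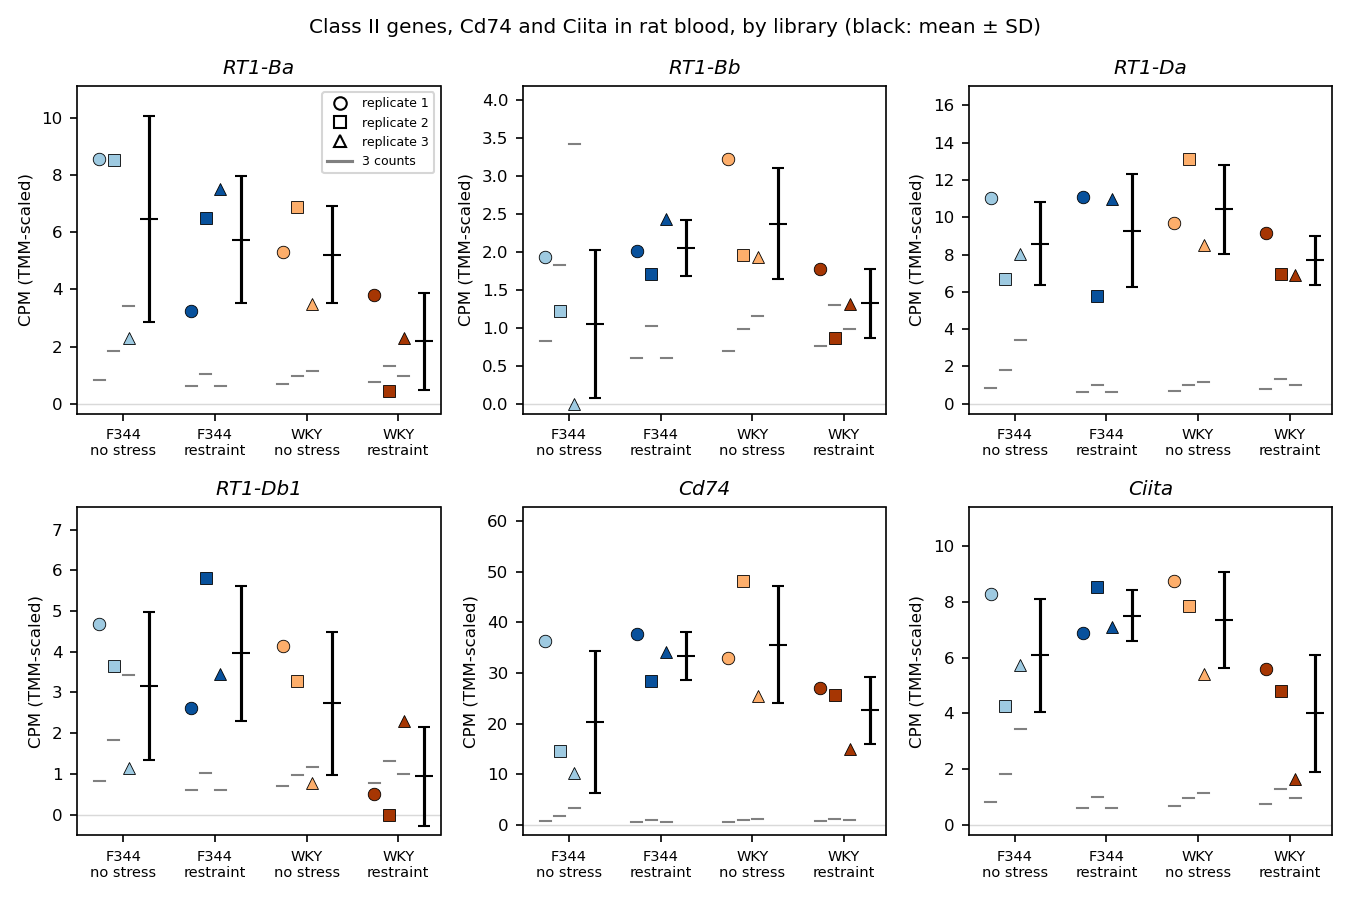
Level of each gene in every library, in TMM-scaled CPM on a vertical axis of its own per gene, with the 4 groups on the horizontal axis. Symbols mark replicates 1, 2 and 3, black bars the mean ± SD, and grey ticks the level of 3 counts in that library. The stressed WKY libraries sit low for RT1-Ba, RT1-Db1 and Ciita, and RT1-Da overlaps in all groups.

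The comparison of CRS with no stress in F344 asked how restraint moved these genes in that strain. No member passed, and the fold changes lay on both sides of 0. This comparison shares the stressed F344 libraries with that of the stressed strains, which was known when the genes were chosen. Its p-values are not independent of that choice. Cd74 stood highest at log2 0.59 (SE 0.347, edgeR adjusted p = 0.939), followed by Ciita at log2 0.20, RT1-Da at 0.080 and RT1-Db1 at 0.059, while RT1-Ba stood at log2 -0.34 (SE 0.438, edgeR adjusted p = 0.996). By edgeR's quasi-likelihood test 0 of the 5 tested members passed an adjusted p of 0.05, beside 0% of all 2781 genes. At an unadjusted p under 0.05 there were 0 members, beside 4.67% of all genes, and DESeq2 and limma-voom called 0 members. No member separated the groups, where 6.22% of tested genes did so upwards and 5.68% downwards. The median over the tested members was log2 0.080, beside 0.015 over all genes. Without unstressed F344 replicate 1 this median was 0.51, with Cd74 at log2 1.4 (edgeR adjusted p = 0.114, from 0.114 to 0.999 over its 21 alternatives). Without replicates 2 and 3 together it was -0.12, and all 5 were then negative, while RT1-Bb, which passes the filter in that fit, was not. That fit leaves 1 library in the group, assumed to vary like the others.

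In WKY the same comparison gave negative fold changes for all 5 tested members. RT1-Db1 stood at log2 -1.53 (SE 0.690), RT1-Ba at -1.13 (SE 0.490), Ciita at -0.87 (SE 0.393), Cd74 at -0.65 (SE 0.340) and RT1-Da at -0.43 (SE 0.341). Earlier results of this comparison led to the choice of the genes, so these values are a description and are given without p-values. With edgeR 0 of the 5 passed, beside 0% of all genes, and DESeq2 and limma-voom called 0. No tested member separated the groups, where 4.93% of tested genes did so upwards and 5.18% downwards. The median was log2 -0.87, beside 0.017 over all genes. It ran from -1.15 without stressed WKY replicate 1 to -0.49 without stressed WKY replicate 3, the library with the lowest Cd74 and Ciita levels of its group. Globin genes stood higher with CRS in the same strain, at a sum of 24623 to 33107 CPM without stress and 41703 to 45781 CPM after it, with 0 of 5 tested past the threshold. Platelet markers in WKY summed to 32.5 to 79.7 CPM without stress and 67.2 to 103 CPM after it, also with 0 of 5 past the threshold. They were higher with CRS in F344 too, at 28.6 to 45.2 CPM without stress and 57.9 to 67.6 CPM after it, so this was not particular to WKY. In the fit without globin genes and the 3 most abundant features, all tested class II members were negative for CRS in WKY. Their median there was log2 -0.86. That fit leaves out rows and rescales the same class II counts, so nothing about globin is read from it. The part of globin or platelet transcripts in the class II values was not tested.

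WKY was compared with F344 first among unstressed rats. No member passed, and the direction differed between them. This comparison shares the unstressed WKY libraries with the comparison within WKY that led to the choice of the genes. Its p-values are not independent of that choice, and nothing is read from a single call below. Cd74 stood at log2 0.68 in WKY over F344 (SE 0.349, edgeR adjusted p = 0.555), RT1-Da at 0.22 and Ciita at 0.20, against RT1-Db1 at -0.34 and RT1-Ba at -0.45 (SE 0.451, edgeR adjusted p = 0.840). By edgeR 0 of 5 members passed, beside 0.683% of all genes (0.324% higher and 0.36% lower). At an unadjusted p under 0.05 there were 0 members, beside 9.31% of all genes, and DESeq2 and limma-voom called 0 members. No member separated the groups, where 7.7% of tested genes did so upwards and 6.33% downwards. The median was log2 0.20, beside -0.0095 over all genes. Without unstressed F344 replicate 1, Cd74 passed (log2 1.49, edgeR adjusted p = 0.0377), and without unstressed F344 replicates 2 and 3 together it stood at log2 0.021. Over all 21 alternatives its adjusted p ran from 0.0377 to 0.999.

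Among stressed rats all 5 tested members stood lower in WKY than in F344. RT1-Db1 stood at log2 -1.94 (SE 0.658), RT1-Ba at -1.24 (SE 0.476), Ciita at -0.87 (SE 0.387), Cd74 at -0.57 (SE 0.338) and RT1-Da at -0.29 (SE 0.336). This comparison too was known when the genes were chosen, and it shares the stressed WKY libraries with the comparison within WKY, so no p is given. With edgeR 0 of 5 passed, beside 1.29% of all genes (0.647% in each direction), and DESeq2 and limma-voom called 0. RT1-Db1, Cd74 and Ciita separated the groups downwards, 3 of the 5 tested, beside 9.92% of tested genes, and none did so upwards, beside 9.64%. Nothing is read from this share, because the comparison was used in choosing the genes. The median was log2 -0.87, beside 0.0057 over all genes. It ran from -1.26 without stressed WKY replicate 1 to -0.49 without stressed WKY replicate 3. Without that replicate 3, RT1-Db1 stood at log2 -3.43 and was the one member past the threshold, and the libraries then left held 2 and 0 counts.

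The difference between the strains in their response to CRS was negative for all 5 tested members. It was log2 -1.59 for RT1-Db1 (SE 0.898), -1.24 for Cd74 (SE 0.486), -1.07 for Ciita (SE 0.555), -0.79 for RT1-Ba (SE 0.657) and -0.51 for RT1-Da (SE 0.490). For Cd74 and Ciita this combined a positive value in F344 with a negative one in WKY, whereas RT1-Ba was negative in both. The difference contains the WKY comparison that led to the choice of the genes, so it too is a description without p-values. By edgeR 0 of 5 passed, beside 0% of all genes, and DESeq2 and limma-voom called 0 members. The median of log2 -1.07 was -1.5 with replicate 1 of unstressed F344 left out and -0.69 with its replicates 2 and 3 left out. With stressed WKY replicate 3 left out it was -0.77.

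**Figure D3:**
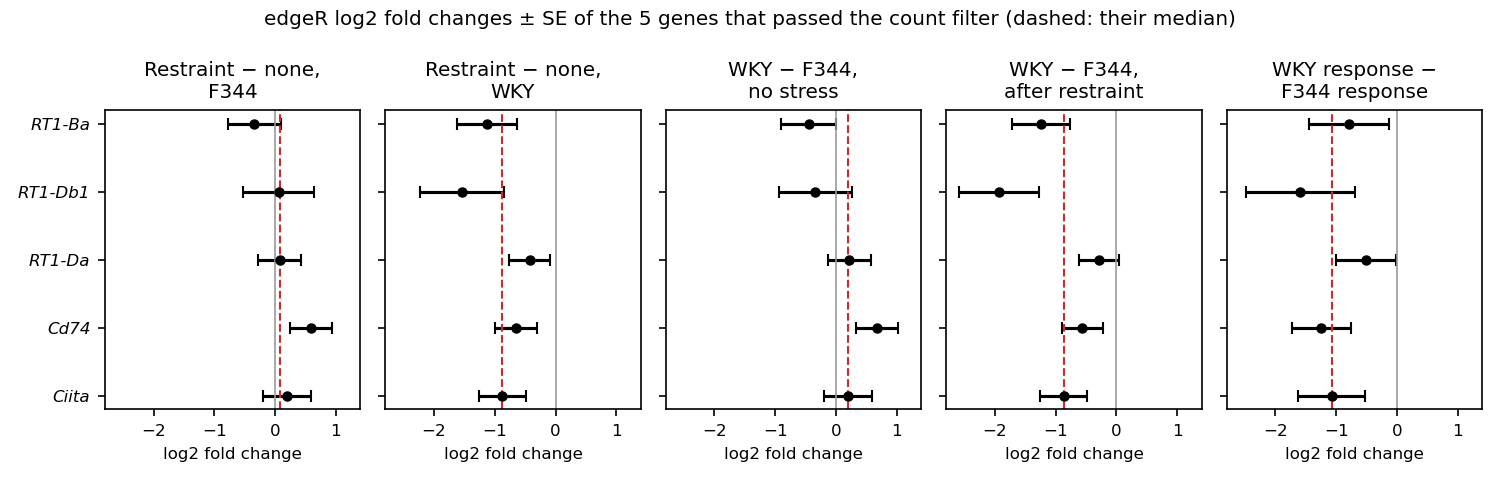
Log2 fold changes from edgeR with their SE for the 5 genes that passed the low-count filter, in 5 comparisons, on a shared horizontal axis. The dashed line marks the median of the 5. All 5 genes lie left of 0 in WKY after restraint, in WKY against F344 after restraint and in the difference of responses, and on both sides of 0 in the other 2 panels.

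The levels of the 6 genes were also added up in each library. The sum was 70.9, 39.0 and 27.5 CPM in unstressed F344 and 63.6, 56.7 and 65.5 CPM in stressed F344. In WKY it was 64.0, 81.3 and 45.7 CPM without stress and 47.9, 38.8 and 29.6 CPM after CRS. Stressed WKY lay below stressed F344 in every library, and it overlapped with unstressed WKY by 47.9 against 45.7 CPM. Of single tested genes, 9.92% separated the stressed strains downwards and 9.64% upwards. That comparison was used in choosing the genes, so nothing is read from the separation. The spread within groups differed, from 4.67 CPM (SD, n = 3) in stressed F344 to 22.5 CPM in unstressed F344. Since Cd74 gave the larger part of the counts, the sum mostly follows that gene.

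Counts of a gene per 100 Cd74 counts in the same libraries need no scaling between libraries and show which members moved apart. RT1-Ba had 28.5 (95% exact interval 20.1 to 39.6) for F344 NS, 16.4 (12.6 to 21.1) for F344 CRS, 14.9 (10.9 to 19.9) for WKY NS and 10.9 (6.76 to 16.8) for WKY CRS. RT1-Db1 had 14.5 (9.06 to 22.4), 10.7 (7.77 to 14.5), 8.43 (5.60 to 12.2) and 4.27 (1.92 to 8.25) in the same order. Both had fewer counts per Cd74 count in WKY than in F344 under either treatment, but the intervals of the strains were apart in 1 case only, RT1-Ba without stress. That gap (20.1 against 19.9) rests on unstressed F344 replicate 2, where RT1-Ba had 58.3 counts per 100 Cd74 counts, against 23.5 and 22.2 in replicates 1 and 3. RT1-Da had 35.2 (25.6 to 47.7), 28.8 (23.4 to 35.1), 29.2 (23.2 to 36.4) and 34.6 (26.1 to 45.3), RT1-Bb 5.45 to 7.02 and Ciita 18.0 to 25.5, with intervals that overlap throughout. The intervals cover counting error over 3 added libraries only. Between single libraries the log2 ratio of RT1-Db1 to Cd74, with 1 CPM added to each, spread by an SD of 1.29 in stressed WKY and 0.495 in unstressed F344 (n = 3 each). For RT1-Ba the SD was 1.05 and 0.678 in the same groups.

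**Figure D4:**
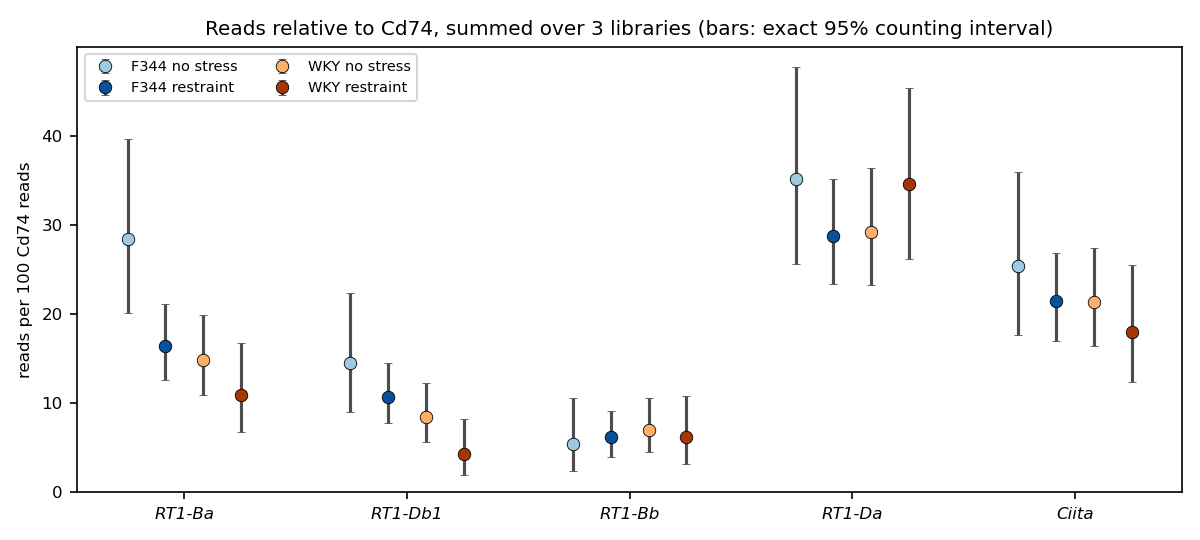
Counts of 5 members per 100 Cd74 counts, summed over the 3 libraries of each group, on a vertical axis from 0. Bars are exact 95% intervals for counting error. RT1-Ba and RT1-Db1 step down from unstressed F344 to stressed WKY, and RT1-Bb, RT1-Da and Ciita have overlapping intervals in the 4 groups.

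The 5 tested members were not equally alike in how their log2 levels varied over the 12 libraries. RT1-Ba and RT1-Db1, chains of different molecules, were the most alike of these 5 (Pearson's r = 0.83), and Cd74 was most like RT1-Da (r = 0.67) and Ciita (r = 0.64). RT1-Da and its partner chain RT1-Db1 were little alike (r = 0.18). After the group means were taken out, the values were 0.72 for RT1-Ba with RT1-Db1, 0.68 for Cd74 with RT1-Da and 0.65 for Cd74 with Ciita, against -0.0016 for RT1-Da with RT1-Db1. These are descriptions over 12 libraries that share depth and scaling, and counts under 10 add noise to RT1-Ba, RT1-Db1 and Ciita.

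Among 2776 tested genes outside the set, those most like the summed class II level over the 12 libraries were Ppp1r37 (Pearson's r = 0.867), Lgmn (0.855), Naca (0.851), Cd79b (0.830) and Fcer2 (0.826). Lgmn encodes legumain, an endosomal protease. Cd79b is part of the B cell receptor complex, and Fcer2 (CD23) is a low-affinity IgE receptor of B cells. The median over all these genes was 0.0626. After the group means were taken out, the leading genes were C5ar1 (0.920), Scpep1 (0.911), Fcer2 (0.904), Dctn1 (0.902) and Gsr (0.873), with a median of 0.0729 over all, so Fcer2 was the one gene on both lists.

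The further class II chains had few counts. RT1-DMb, a chain of the DM molecule that exchanges the invariant chain fragment for peptide, was the one of 6 that passed the filter, with 2.43 ± 1.26 CPM (SD, n = 3) for F344 NS, 3.21 ± 1.58 for F344 CRS, 2.91 ± 1.71 for WKY NS and 1.47 ± 0.272 for WKY CRS. Its fold change with CRS was log2 0.28 in F344 and -0.97 in WKY, and it did not pass in any comparison. RT1-DMa (57 counts in all), RT1-DOa (42), RT1-DOb (56), RT1-Db2 (20) and RT1-Ha (21) were not tested. The sum of these 6 genes was 5.55 ± 2.15 CPM (SD, n = 3) for F344 NS, 8.87 ± 0.901 for F344 CRS, 8.75 ± 2.76 for WKY NS and 5.0 ± 1.85 for WKY CRS. As with the sum of the main 6 genes, all stressed WKY libraries (3.93 to 7.13 CPM) lay below all stressed F344 libraries (8.19 to 9.89 CPM). Of single tested genes, 9.92% separated downwards in this comparison. The gene lists were chosen with earlier results known, so nothing is read from this separation either.

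Genes that act on class II transcription were read from a list of 17, of which 10 were tested. The list holds the X and Y box factors and the interferon-gamma route to Ciita. Of the X and Y box factors on it, Nfyc alone was tested. By edgeR 0 of the 10 tested genes passed in either direction in any of the 5 comparisons. Their median fold change with CRS was log2 -0.18 in F344 and -0.044 in WKY, and that of WKY over F344 was 0.13 without stress and 0.19 after CRS. Jak1, a kinase of cytokine receptors, stood between 15.2 and 19.1 CPM in the group means. The X box subunits Rfx5 (67 counts in all), Rfxap (17) and Rfxank (31) were not tested, nor were Nfya (43), Nfyb (23) and Creb1 (46). These genes and Nfyc are named here for their role and outside the naming rule.

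Of 12 genes of antigen processing and class II turnover, 7 were tested. Ctsb, the endosomal protease cathepsin B, was lower in WKY than in F344 among unstressed rats (log2 -1.33, SE 0.294, edgeR adjusted p = 0.0164). The same held among restrained rats (log2 -1.25, SE 0.291, edgeR adjusted p = 0.0147). It was the one gene of the list called in any comparison, beside 0.36% of all genes called lower without stress and 0.647% after CRS. The list was chosen with earlier results known, so these p-values are not independent of that choice. Ctsb had 104 ± 29.4 CPM (SD, n = 3) for F344 NS, 88.5 ± 12.3 for F344 CRS, 40.9 ± 5.62 for WKY NS and 37.2 ± 6.82 for WKY CRS. Ctsd, cathepsin D, stood between 33.6 and 34.9 CPM in all 4 group means. Among 7 genes of costimulation and class II receptors, Cd4 alone was tested. This co-receptor for class II had 4.13 ± 3.6 CPM (SD, n = 3) for F344 NS, 5.98 ± 1.21 for F344 CRS, 8.13 ± 0.673 for WKY NS and 7.17 ± 0.408 for WKY CRS, and it did not pass in any comparison.

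Markers of the cells that carry class II were read in the same libraries. In bulk blood, fewer cells of a type and less RNA per cell cannot be told apart. The 17 B cell markers counted summed to 48.5, 32.9 and 33.2 CPM for F344 NS, 38.4, 39.3 and 41.2 for F344 CRS, 41.7, 48.8 and 37.9 for WKY NS and 35.4, 37.1 and 26.9 for WKY CRS. Unstressed WKY replicate 2 and unstressed F344 replicate 1 were highest in this sum and in the class II sum, and stressed WKY replicate 3 was lowest in the first and second lowest in the other. Of 9 B cell markers tested, 0 passed in any comparison. With CRS in WKY all 9 were negative with a median of log2 -0.26, beside -0.87 for the class II members. With CRS in F344, 5 of the 9 were negative and their median was lower, at log2 -0.53, beside 0.080 for the class II members. Cd79b, which defines B cells, stood at 5.09 ± 1.36 CPM (SD, n = 3) in unstressed WKY and at 4.11 ± 2.74 CPM in stressed WKY. In F344 it stood at 2.81 ± 2.82 CPM without stress and at 6.07 ± 0.871 CPM after CRS. Between 0 and 7 of the 17 markers were at 0 in a library, most in unstressed F344 replicate 3. Ms4a1, the gene of CD20, was not tested, with 35 counts in all and 0 in 1 library.

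Class II counts per B cell marker count were 1.46, 1.19 and 0.828 in unstressed F344 and 1.66, 1.44 and 1.59 in stressed F344. They were 1.54, 1.66 and 1.20 in unstressed WKY and 1.35, 1.05 and 1.10 in stressed WKY. Stressed WKY lay below all stressed F344 libraries in this ratio as well, and overlapped with unstressed WKY. Of single tested genes, 9.92% separated the stressed strains downwards. The ratio holds the same class II counts, chosen with that comparison known, so nothing is read from its separation. The part of B cell transcripts in the class II values was not tested.

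**Figure D5:**
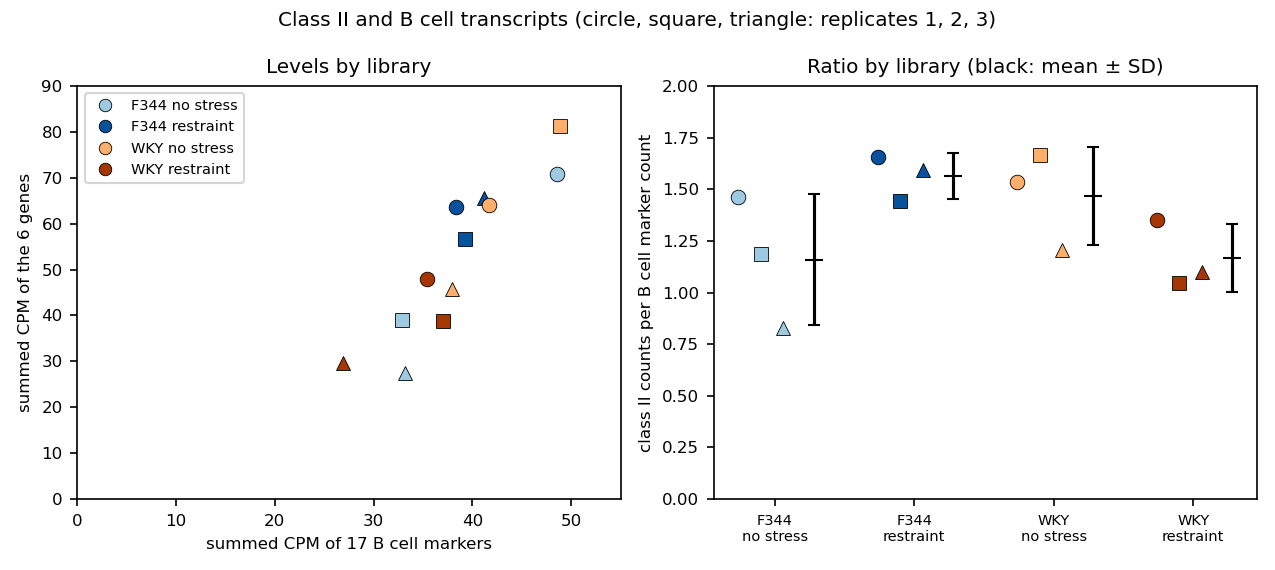
Left, summed level of the 6 genes against the summed level of 17 B cell markers in each of 12 libraries, both in CPM. Right, class II counts per B cell marker count by group, with mean ± SD. Libraries high in B cell markers are high in class II, and the ratio in stressed WKY (1.05 to 1.35) lies below that in stressed F344 (1.44 to 1.66).

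The summed level of 13 monocyte markers was higher in every WKY library than in every F344 library under either treatment. It was 70.7 to 78.0 CPM in F344 and 131 to 145 CPM in WKY without stress, and 81.2 to 95 CPM and 132 to 177 CPM after CRS. Lyz2 supplied most of this sum. Of single tested genes, 7.7% separated the strains upwards without stress and 9.64% after CRS. The list was chosen with earlier results known, so nothing is read from the separation. Under either treatment, 5 of the 6 tested markers had a positive fold change in WKY over F344 and 1 had a negative one. Cybb, a subunit of the phagocyte oxidase, was higher in stressed WKY than in stressed F344. Its fold change was log2 1.88, with SE 0.426 and an edgeR adjusted p of 0.0114. The call was 1 of 6 tested markers, beside 0.647% of all genes called higher after CRS. Its p-value is not independent of the choice of the list, so nothing is read from this call. Lyz2, lysozyme, stood at 61.3 ± 5.74 CPM (SD, n = 3) in stressed F344 and 119 ± 22.3 in stressed WKY, and Csf1r at 12.0 ± 2.71 and 12.4 ± 0.927 CPM. Cd14 had 26 counts over all libraries. The sum of 14 T cell markers was 61.4 to 64.2 CPM in stressed F344 and 36.6 to 50.2 CPM in stressed WKY. Of 10 tested T cell markers, 0 passed the threshold. Of single tested genes, 9.92% separated downwards in this comparison, and nothing is read from the T cell sums. The 9 dendritic cell markers counted had too few counts to be tested, summing to 2.44 to 6.58 CPM in a library. Flt3 was at 0 in 4 of 12 libraries, and between 2 and 7 of the 9 were at 0 in each. The sums of 11 neutrophil markers overlapped between the stressed strains, at 34.5 to 50.9 CPM in F344 and 43.6 to 52.6 CPM in WKY. The part of these cell types in the class II values was not tested.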

How the data were processed

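Rat blood RNA was collected in PAXgene tubes and sequenced on the Ion Proton, per the labels' protocols. The deposited files hold raw read counts per gene, not normalised by the authors; 5 rows per file name no gene, took 80.9% to 86.6% of all counts and were left out. Build rn6, TopHat2 2.1.0, Cufflinks 2.2.1 and cutadapt 1.14 are listed without roles, per the submitters' processing notes; which program counted the reads, with which annotation and strand, is not given in the sources used here.

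Groups came from the titles. All 12 libraries entered 1 fit of 4 group means in edgeR 4.0.16 (R 4.3.3, quasi-likelihood, TMM, filterByExpr with minimum count 10), with Benjamini-Hochberg adjustment over 2781 genes. The SE is the fold change over the root of F. CPM use TMM-scaled library sizes of the filtered genes. Likeness used log2 CPM with a prior count of 2. The step was tested on simulated data. DESeq2 1.42.0 and limma 3.58.1 were alternatives.

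The members and gene lists were chosen with earlier results of these data known. Named were the 6 members and, from each other list, genes past the threshold, otherwise the 2 of highest mean, plus defining markers, and the 5 genes most like the members. Symbols were matched to RefSeq GRCr8, which also gave the promoters. A longer spelling of the X box was tried first and matched fewer promoters. Values of some listed genes are not reported here.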

Additional observations from a re-analysis of the deposited data

How the results depend on the processing

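All tested members kept a negative fold change under all 21 alternatives for CRS in WKY and for WKY against F344 after CRS, and under all 20 for the difference in response. These comparisons were known when the genes were chosen, or contain one that was. The alternatives refit the same libraries, so the kept signs are a description and no separate evidence. Outside the libraries left out singly, the median ran from log2 -1.0 to -0.77, from -1.0 to -0.70 and from -1.47 to -0.69 in these comparisons, with the replicate block at -0.89, -0.94 and -1.21. In the other 2 comparisons directions did not hold. Without unstressed F344 replicates 2 and 3 together, CRS in F344 gave RT1-Da -0.15, RT1-Db1 -0.23, Cd74 -0.052 and Ciita -0.087, and WKY against F344 without stress gave RT1-Da -0.028 and Ciita -0.098. Fitting the compared groups alone gave RT1-Db1 -0.016 for CRS in F344. With single libraries left out, CRS in F344 ranged from -0.24 to 0.51 for RT1-Db1 and from -0.046 to 0.42 for RT1-Da, and WKY against F344 without stress from -0.79 to 0.11 for RT1-Db1; the cause was not tested. The count of members called ranged from 0 to 1 over the leave-outs, as given above for Cd74 and RT1-Db1. The log2 ratio of summed levels ranged over the leave-outs from 0.17 to 0.90 for CRS in F344, 0.21 to 0.94 for WKY against F344 without stress and -1.61 to -0.89 for the difference, the outer values without unstressed F344 replicate 1 or 3. Over all genes, counts called moved with no filter (5, 8 and 3 for CRS in F344, in WKY and the difference, each 0 before), with limma-voom (2 for CRS in F344), and from 19 to 9 for WKY against F344 without stress in its groups alone, to 5 without the 2 shallow libraries, and to between 5 and 45 over the leave-outs. Single leave-outs also gave 5 for CRS in F344 (without unstressed F344 replicate 1), 2 for CRS in WKY (without unstressed WKY replicate 1) and up to 2 for the difference. After CRS the leave-outs gave 18 to 46, against 36. Replicate numbers are shared by the groups, and the labels do not say whether they pair the libraries. Of 18 same-numbered pairs, 4 deviated together with a correlation over 0.1, the highest at 0.204. Yet 9 of 12 libraries correlated best with a library of their own number. Whether the numbers stand for something the libraries share was not tested. The block called 0 members in every comparison and 25 and 42 genes against 19 and 36 between strains. RT1-Bb was fitted only with no filter and without both shallow libraries. Counts under 10 in more than 1 library limit RT1-Ba, RT1-Bb, RT1-Db1 and Ciita. RT1-Da (7 counts) and Cd74 (9 counts) were under 10 in unstressed F344 replicate 3 alone. The leave-outs and raw-count shares of the summed level and the counts of directions were added after the data were seen.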

Other observations

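A pair of genes that act on class II stood out among the lists by their group means; they were chosen after their values were seen, and neither passed in any comparison. Irf8, a transcription factor of B cells, monocytes and dendritic cells, had 1.91 ± 0.810 CPM (SD, n = 3) for F344 NS, 3.91 ± 1.10 for F344 CRS, 3.99 ± 0.465 for WKY NS and 2.23 ± 0.421 for WKY CRS. Its order of groups was that of the Cd74 means. March8, a ubiquitin ligase that removes class II from the cell surface, stood at 3.96 ± 0.815, 3.66 ± 0.433, 1.52 ± 1.05 and 3.8 ± 1.11 CPM in the same order. Its fold change with CRS in WKY was log2 1.26 (SE 0.519, edgeR adjusted p = 0.787), opposite in sign to the class II chains.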
